A study of Sargassum vulgare with 6 samples.

Results

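The transcripts described here were far more abundant in tissue of the brown alga Sargassum vulgare from an acidified site than in such tissue from a control site. They were chosen by their measured values. A transcript was called detected when its FPKM (mapped fragments scaled by the length of the transcript and the size of the library) reached 1 in 3 or more of the 6 libraries. A detected transcript became a member when its lowest value among the acidified libraries was at least 1 FPKM and at least 3 times its highest value among the control libraries. Transcripts of a component (sequences that the assembly collects as forms of 1 gene) with 3 or more detected transcripts were left out. The rule kept 104 of 5399 detected transcripts, out of 67131 listed.

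The acidified group was 3 libraries of apical tissue from S. vulgare growing off Castello Aragonese at Ischia, Italy, where natural vents release carbon dioxide. The control group was 3 libraries of apical tissue from the same species off Lacco Ameno at Ischia. Each library was made from a pool of 3 thalli, so the spread among libraries is that of pools and not of single thalli. The tissue had been cleaned of visible epiphytes, and libraries were built from total RNA with a stranded kit. Since each group stands for 1 location, effects of acidity and of anything else that sets the locations apart cannot be told apart.

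Brown algae of this genus form canopies on shallow rocky shores, and their growth proceeds from the apical parts of the thallus. Carbon dioxide that dissolves in sea water lowers its pH and raises the supply of dissolved inorganic carbon, the substrate of photosynthesis, while it makes the keeping of ion balance and the building of carbonate more demanding for many organisms. Without a reference genome, transcripts are assembled from overlapping reads, and forms that share sequence are collected in a component. The deposited tables pair no transcript with a gene name, a function, a length or a sequence, nor with the organism it came from, so members are described by their level, their profile over libraries, their assembly and their component. At most 2 are named by their identifier, and the others are called by their rank, with rank 1 for the highest mean FPKM over the acidified libraries.

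Summed FPKM lay between 750020 and 1048696 in the acidified libraries and between 764917 and 895218 in the control libraries. How many reads they rest on is unknown. The smallest sum was that of acidified library 3 and the largest that of acidified library 1. Higher and lower levels in bulk tissue cannot be told apart from more or fewer cells that hold the transcript.

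The members covered more than 3 orders of magnitude of abundance. Their mean over the acidified libraries was 500 FPKM or more for 10 members, between 50 and 500 for 6, between 5 and 50 for 36, and under 5 for 52. The median member averaged 4.96 FPKM at the acidified site, against 0.0787 FPKM at the control site, where the median detected transcript averaged 2.84 and 2.80 FPKM. In the control libraries 40 members were listed at 0 throughout, 30 in 2 libraries, 8 in 1 library and 26 in none. For the 64 members with a control value above 0, the lowest acidified value was between 3.03 and 167 times the highest control value, with a median of 5.46. That ratio was at least 10 for 21 of them and at least 50 for 3. Of these 3, the member ranked 98 averaged only 1.44 FPKM at the acidified site. Its ratio rests on a value of 0.01 FPKM in control library 1, with 0 in control libraries 2 and 3. All values of this kind chose the members and are a description.

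**Figure D1:**
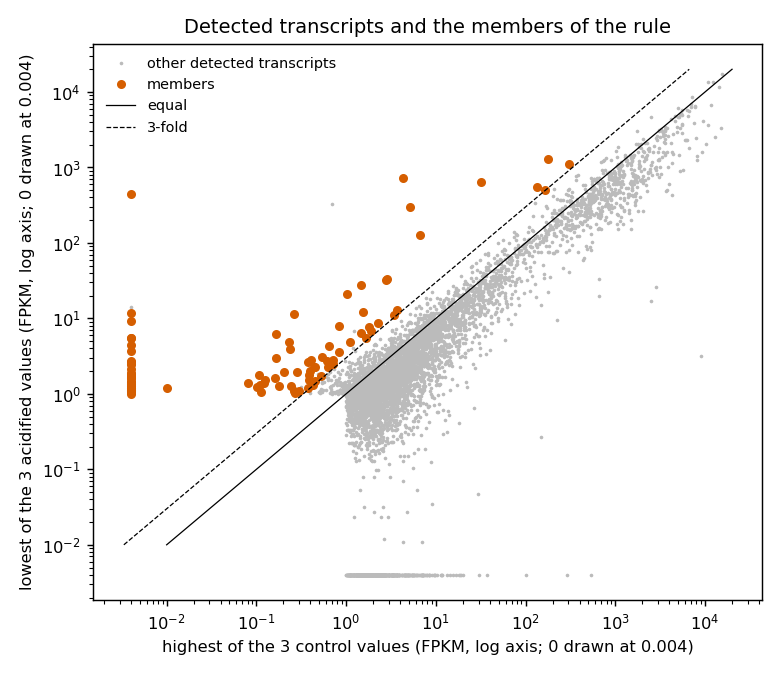
Each point is 1 of the 5399 detected transcripts, with the highest of its 3 control values across and the lowest of its 3 acidified values up, both in FPKM on log axes with values of 0 drawn at the edge. The 104 members (orange) lie on or above the dashed 3-fold line, and 40 of them stand at the left edge because they were listed at 0 in every control library; grey points above that line belong to components with 3 or more detected transcripts.

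Together the members held 3.93%, 1.17% and 3.09% of the summed FPKM in acidified libraries 1, 2 and 3, and 0.0658%, 0.0830% and 0.0836% in control libraries 1, 2 and 3. The share averaged 2.73% ± 1.41 over the acidified libraries and 0.0775% ± 0.0101 over the control libraries (SD, n = 3 per site). The 10 members of 500 FPKM or more made up most of it, with 2.47% ± 1.33 over the acidified libraries and 0.0746% ± 0.0105 over the control libraries. Acidified library 2 had the smallest share of the 3. Every acidified share lay above every control share, which follows from the rule and is no separate result. In percentage points, the acidified libraries differed among themselves by about as much as the site means did. As ratios, the site means lay much further apart than the acidified libraries.

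**Figure D2:**
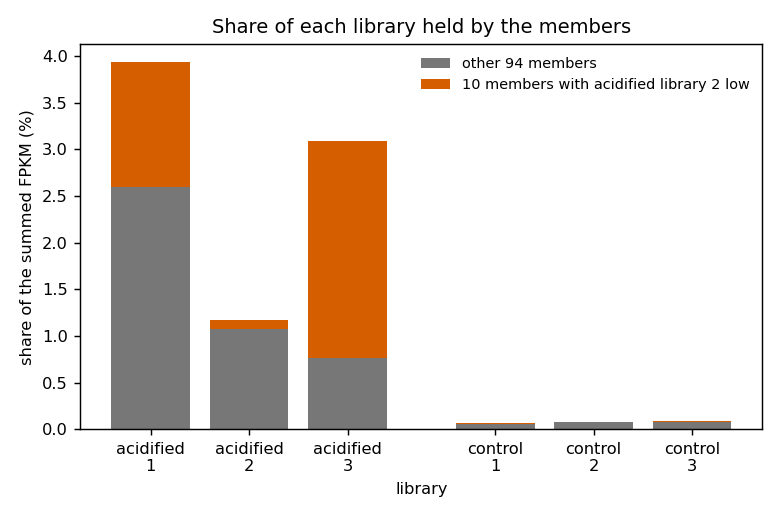
Bars give the percentage of the summed FPKM of each library that the members held, split into the 10 members whose level in acidified library 2 was at least 3 times below that in both other acidified libraries (orange) and the other 94 (grey). The orange part was 1.34%, 0.0997% and 2.33% in acidified libraries 1, 2 and 3, and at most 0.00556% in any control library.

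In limma's test of the acidified against the control site over all detected transcripts, 92 of the 104 members were higher with an adjusted p under 0.05. The background was 4.11% of all detected transcripts called higher and 7.67% called in either direction. The rule used this contrast, so the count only accounts for the members. The difference on the log2(FPKM + 1) scale had a median of 2.22 over the members and ranged between 0.86 and 9.16. This scale understates the change of low transcripts. Among the 12 members not called were those ranked 2 and 7, whose acidified values differed widely between libraries, and 5 of the 6 members that were high in acidified library 3 alone. The other 5 had acidified means between 1.07 and 1.45 FPKM. The count of called members was 48, 48 and 79 without acidified library 1, 2 and 3, and 58, 53 and 47 without control library 1, 2 and 3. Calls over all detected transcripts moved too. With every library 222 were called higher. Without acidified library 1, 2 and 3 it was 87, 68 and 219, and without control library 1, 2 and 3 it was 133, 99 and 77.

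Members differed more among the acidified pools than detected transcripts in general. The SD of log2(FPKM + 1) over the 3 acidified libraries had a median of 0.64 over the members and 0.34 over all detected transcripts. At the control site, where most members were near 0, it was 0.10 over the members and 0.33 over all detected transcripts. The highest acidified value of a member was between 1.02 and 1104 times the lowest, with a median of 2.97. For the 3783 detected transcripts with at least 1 FPKM in every acidified library that median was 1.65. A ratio of at least 10 was found in 14 members (13.5%), and in 19 of those 3783 transcripts (0.502%), the 14 members included. No test of this difference was made, because the rule used the acidified values.

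To describe these differences, members were grouped by whether 1 acidified library stood apart from both others by at least 3 times. These profile groups were defined after the values had been seen. Acidified library 2 was low in 10 members, library 3 was low in 20, library 3 was high in 6, and no library stood apart in 68. Library 1 was high in 2, which are both among the 20 with library 3 low. Over the 3783 detected transcripts with at least 1 FPKM in every acidified library, library 2 was low in 25 (0.661%), library 3 was low in 58 (1.53%), library 3 was high in 14 (0.370%), and no library stood apart in 3667 (96.9%).

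**Figure D3:**
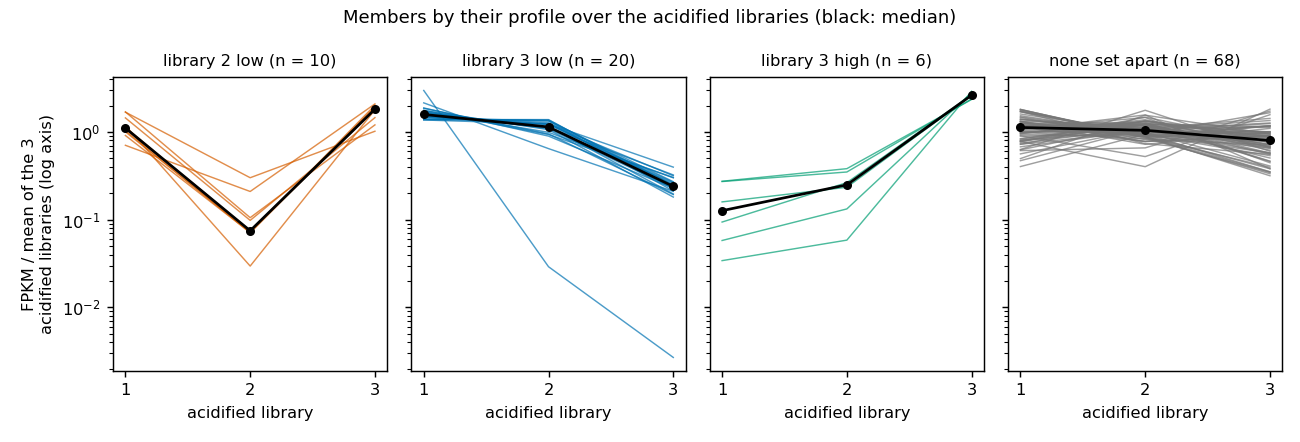
Each coloured line is 1 member, drawn as its FPKM in the 3 acidified libraries divided by the mean of the 3, on a log axis. Black lines give the median of each profile group, which holds 10, 20, 6 and 68 members in the panels shown left to right, and a single member with library 3 low falls far below the others because its value in library 1 was 1104 times that in library 3.

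The group with library 2 low held the most abundant member, Sample_MAC_c41254.graph_c0_seq1, and 7 of the 16 members of 50 FPKM or more. Sample_MAC_c41254.graph_c0_seq1 had 9562, 649 and 9639 FPKM in acidified libraries 1, 2 and 3, against 32.2, 3.09 and 7.74 FPKM in control libraries 1, 2 and 3. Its acidified libraries 1 and 3 were nearly equal and library 2 was far below them, though above every control value, as the rule requires. The mean was 6617 ± 5168 FPKM over the acidified and 14.4 ± 15.7 FPKM over the control libraries (SD, n = 3 per site), a difference of 8.53 ± 1.28 (SE) on the log2(FPKM + 1) scale. It was the only listed transcript of its component. Whether the control-site assembly holds a form of the same gene could not be looked at without sequences.

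The other 6 abundant members of this group followed the same order of acidified libraries, with library 3 above library 1 and library 2 lowest. The member ranked 5 had 1856, 127 and 3401 FPKM in acidified libraries 1, 2 and 3, against 6.72, 0.801 and 1.71 FPKM in control libraries 1, 2 and 3. The member ranked 7 had 1301, 32.5 and 1965 FPKM in the acidified libraries, against 2.78, 0.294 and 0.312 FPKM in the control libraries. The member ranked 12 had 415, 27.5 and 663 FPKM in the acidified libraries, against 1.48, 0.223 and 0.232 FPKM in the control libraries. In these 3 the control libraries too were unequal, with library 1 several times above libraries 2 and 3. The member ranked 11 had 421, 33.0 and 933 FPKM in the acidified libraries, against 2.83, 0 and 0 FPKM in the control libraries. The member ranked 14 had 303, 20.9 and 511 FPKM in the acidified libraries, against 1.02, 0 and 0 FPKM in the control libraries. The member ranked 15 had 169, 12.2 and 325 FPKM in the acidified libraries, against 1.56, 0 and 0 FPKM in the control libraries. For these 3 the only control library with a value above 0 was library 1.

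Over all 7, acidified library 1 was between 12.8 and 40.0 times library 2, and acidified library 3 was between 1.01 and 2.21 times library 1. Control library 1 was the highest control library in 7 of 7, at between 1.02 and 32.2 FPKM. In the 4 with a value above 0 in control library 2, control library 1 was between 6.61 and 10.4 times control library 2. The order of the control libraries was not part of the rule, but all 7 share the same 3 libraries, so their agreement is that of 1 set of pools. Of all detected transcripts, control library 1 was highest in 35.1%, and of the 15 transcripts with acidified library 2 low that were not members it was highest in 3. The remaining 3 of the 10 members with this profile were at 0 in every control library and averaged between 3.98 and 12.1 FPKM at the acidified site. All 10 came from the acidified-site assembly, and 9 were the only listed transcript of their component. Without these 10, the members held 2.59%, 1.07% and 0.759% of the summed FPKM in acidified libraries 1, 2 and 3, and between 0.0603% and 0.0825% in the control libraries.

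The widest spread within the acidified site was that of the member ranked 2. It had 12061, 118 and 10.9 FPKM in acidified libraries 1, 2 and 3, against 2.47, 3.39 and 3.31 FPKM in control libraries 1, 2 and 3. Library 1 alone carried it to its rank, and in library 3 it was only 3.22 times the highest control value. Its difference was 5.998 ± 2.65 (SE) on the log2(FPKM + 1) scale.

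In the group with library 3 low, all 20 members were highest in library 1 and lowest in library 3. The median ratio was 1.40 between acidified libraries 1 and 2 and 6.14 between libraries 1 and 3. The member ranked 4 had 3470.1, 2529 and 725 FPKM in acidified libraries 1, 2 and 3, against 4.35, 2.94 and 2.61 FPKM in control libraries 1, 2 and 3. Its lowest acidified value was 167 times its highest control value, the widest such gap among the members with a control value above 0, and its difference was 8.77 ± 0.52 (SE) on the log2(FPKM + 1) scale. The member ranked 16 had 84.9, 54.7 and 11.6 FPKM in the acidified libraries, against 0.236, 0.240 and 0.262 FPKM in the control libraries. A second form of the same component, ranked 43, was also a member, with 11.3, 7.83 and 1.82 FPKM in the acidified libraries and 0 in all control libraries. These 2 are the only members that share a component, and both had their lowest acidified value in library 3. Of the 20 members in the group, 11 were at 0 in every control library and all 20 came from the acidified-site assembly.

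The 6 members with library 3 high were of middle abundance. The member ranked 17 had 1.33, 2.27 and 113 FPKM in acidified libraries 1, 2 and 3, against 0.102, 0 and 0.111 FPKM in control libraries 1, 2 and 3. The member ranked 24 had 1.05, 2.40 and 50.9 FPKM in the acidified libraries, against 0.113, 0 and 0 FPKM in the control libraries. The member ranked 20 had 6.14, 8.54 and 52.5 FPKM in the acidified libraries, against 0.164, 0 and 0 FPKM in the control libraries. In the first pair of these, acidified libraries 1 and 2 lay close to the minimum of the rule and library 3 was far higher. Over the 6, library 3 was between 8.56 and 85.2 times library 1, library 2 was above library 1 in each, and no control value exceeded 0.201 FPKM. All 6 came from the acidified-site assembly, and each was the only listed transcript of its component.

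**Figure D4:**
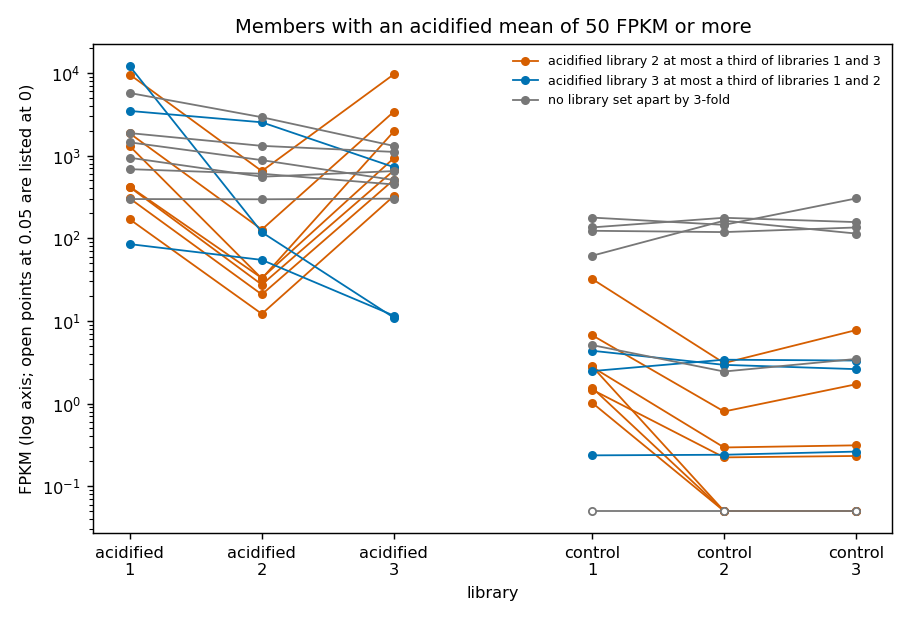
The 16 members with an acidified mean of 50 FPKM or more are drawn with their FPKM in each library on a log axis, acidified libraries left and control libraries right, with open points at 0.05 for values listed at 0. The 7 orange members dip in acidified library 2 and are highest in control library 1 among the control libraries, while the 6 grey members stay within 3-fold steps, 1 of them at 0 in all control libraries.

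Among the 68 members in which no acidified library stood apart, the highest acidified value was a median of 1.87 times the lowest. The steadiest of the abundant ones was the member ranked 13. It had 298, 296 and 301 FPKM in acidified libraries 1, 2 and 3, against 5.10, 2.44 and 3.46 FPKM in control libraries 1, 2 and 3. The acidified libraries were nearly equal, at 298 ± 2.59 FPKM, and the control libraries were at 3.67 ± 1.34 FPKM (SD, n = 3 each), a ratio of means of 81.4 and a difference of 6.04 ± 0.26 (SE) on the log2(FPKM + 1) scale.

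Sample_MAC_c86762.graph_c1_seq3 had the largest difference of all members. It had 685, 603 and 447 FPKM in acidified libraries 1, 2 and 3 and was listed at 0 in all 3 control libraries. Its difference was 9.16 ± 0.25 (SE) on the log2(FPKM + 1) scale, and no ratio is given against values of 0. Its component lists 7 transcripts, of which it was the only one detected.

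Another 4 abundant members were also high at the control site. The member ranked 3 had 5719.5, 2913 and 1308 FPKM in acidified libraries 1, 2 and 3, against 135, 177 and 157 FPKM in control libraries 1, 2 and 3. The member ranked 6 had 1872, 1311 and 1108 FPKM in the acidified libraries, against 178, 145 and 303 FPKM in the control libraries. The acidified libraries kept the order 1, 2, 3 in both, and the ratio of means was 21.2 for rank 3 and 6.85 for rank 6. The member ranked 8 had 1446, 881 and 506 FPKM in the acidified libraries, against 61.4, 163 and 114 FPKM in the control libraries. The member ranked 9 had 942, 555 and 649.6 FPKM in the acidified libraries, against 123, 119 and 135 FPKM in the control libraries. These 4 were the only members above 100 FPKM in any control library, and their sites were separated by 3.11 to 7.40 times between the lowest acidified and the highest control value. Each was the only listed transcript of its component.

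The 40 members at 0 in every control library averaged between 1.29 and 579 FPKM at the acidified site, with a median of 4.68. Their lowest acidified value had a median of 1.41 FPKM, close to the minimum of 1 in the rule, and 6 averaged at least 10 FPKM. After Sample_MAC_c86762.graph_c1_seq3 the highest was the member ranked 18, with 22.6, 11.7 and 52.8 FPKM in acidified libraries 1, 2 and 3. The member ranked 21 had 30.7, 30.3 and 5.499 FPKM, and the member ranked 28 had 28.1, 12.1 and 9.13 FPKM in the acidified libraries. Their order of libraries differed, with library 3 highest in the first and lowest in the others. A value of 0 is an estimate from reads that are shared among similar sequences, and with depth unknown it does not show that the transcript was absent. Of the 40, 39 came from the acidified-site assembly and 17 were the only listed transcript of their component.

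Of the 52 members under 5 FPKM, the median averaged 2.53 FPKM at the acidified site, against 0.0563 FPKM at the control site, and 46 had no acidified library that stood apart. No control value among them exceeded 0.721 FPKM. These 52 members together added little to the share of FPKM, which without them was 2.72% over the acidified libraries, against 0.0769% over the control libraries. At the edge of the rule, 3 members had ratios of 3.03, 3.11 and 3.21 between the lowest acidified and the highest control value, and the nearest 3 transcripts outside had 2.98, 2.97 and 2.94. The member at 3.03 had 2.19, 2.24 and 1.31 FPKM in the acidified libraries, against 0.287, 0 and 0.433 FPKM in the control libraries. The transcript at 2.98 had 1.71, 2.43 and 1.67 FPKM in the acidified libraries, against 0.358, 0.561 and 0 FPKM in the control libraries. Values on both sides of the threshold overlapped.

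By their names 94 of the 104 members (90.4%) came from the assembly of the acidified site and 10 from that of the control site, where 50.4% of all detected transcripts came from the acidified-site assembly. An assembly is built from reads of its own site, so the origin of a transcript is not independent of its level there. The 10 members from the control-site assembly were low, with a median of 2.57 FPKM at the acidified site, against 0.278 FPKM at the control site. The highest of them, ranked 19, had 44.2, 21.8 and 7.78 FPKM in acidified libraries 1, 2 and 3, against 1.24, 1.69 and 1.78 FPKM in control libraries 1, 2 and 3. Next was the member ranked 35, with 13.0, 9.84 and 5.43 FPKM in the acidified libraries, against 1.29, 1.60 and 1.65 FPKM in the control libraries. Both kept the order of acidified libraries 1, 2, 3, and the remaining 8 averaged between 1.43 and 4.12 FPKM at the acidified site.

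The mirrored rule, with the sites exchanged, kept 52 transcripts, of which 46 (88.5%) came from the control-site assembly. Their median averaged 0.159 FPKM at the acidified site, against 3.31 FPKM at the control site, and 15 were at 0 in every acidified library. Their share of all FPKM was 0.0254% ± 0.00883 over the acidified libraries and 1.14% ± 0.229 over the control libraries (SD, n = 3 per site). Their SD of log2(FPKM + 1) over the libraries of the site where they were high had a median of 0.31, against 0.64 for the 104 members over the acidified libraries. No test of the differences between the 2 sets was made.

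Acidified library 1 was the highest acidified library in 53 of the 104 members (51.0%) and library 3 the lowest in 60 (57.7%), where library 1 was highest in 40.6% and library 3 lowest in 44.2% of all detected transcripts. These counts move with the scale of a library. With each library rescaled to the same summed FPKM, library 1 was highest in 35 members (33.7%) and in 22.1% of all detected transcripts. Library 3 was then highest in 40 members (38.5%) and in 47.3% of all detected transcripts. Under the other scalings library 1 stayed the most frequent highest library among members. It was highest in 46 by median ratio, 44 by quantile normalization and 41 with the per-library factor removed. The shares of all detected transcripts were 34.4%, 33.8% and 26.0%.

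Other forms of the members' components were compared between the sites in the same fit. The rule also bears on them, because a form that met it is itself a member and because the number of detected forms decided whether a component was kept. Their counts are thus those of forms left after this choice, not of an independent set. Of the members, 62 were the only listed transcript of their component (59.6%, and 53.7% of all detected transcripts). The components of the other 42 listed a further 214 transcripts, of which 127 were at 0 in all 6 libraries and 14 were detected. Of these 14, 2 were higher at the acidified site and none was lower (limma, adjusted p under 0.05), where 4.11% of all detected transcripts were called higher and 3.56% lower. At an unadjusted p under 0.05 there were 4 higher and 0 lower. The median difference was 0.49 over the 14 and 0.02 over all detected transcripts on the log2(FPKM + 1) scale. Reads shared by both forms of a pair are split by estimation, which ties the value of a form to that of its partner.

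**Figure D5:**
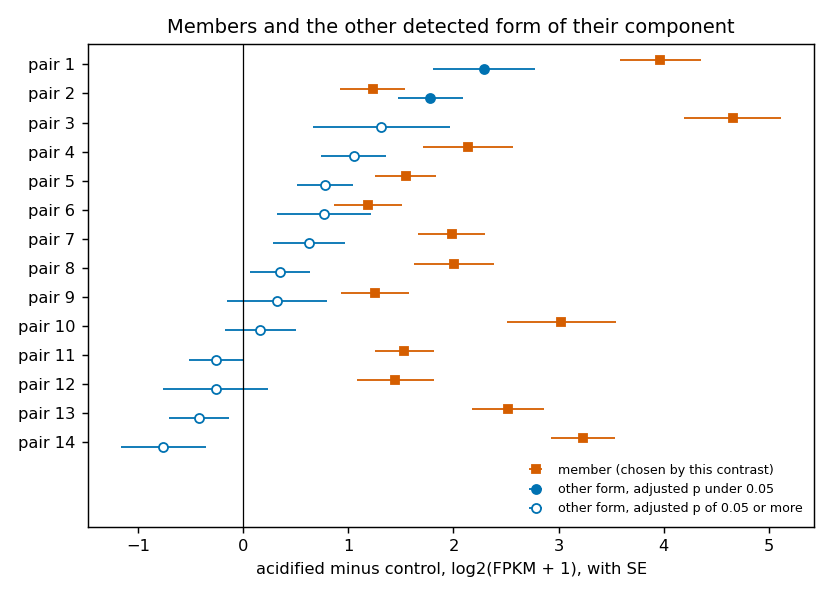
For the 14 components with 1 member and 1 other detected form, the difference between the acidified and the control site on the log2(FPKM + 1) scale is shown with its SE for the member (orange squares) and the other form (blue circles, filled where limma's adjusted p is under 0.05). The other forms range between -0.76 and 2.29, and 10 of the 14 lie above 0, while the members are above 0 by their choice.

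The most abundant of the 14 partners was that of the member ranked 28. It had 1333, 946 and 305 FPKM in acidified libraries 1, 2 and 3, against 151, 171 and 127 FPKM in control libraries 1, 2 and 3. Every acidified value stood above every control value, as in 5 of the 14 partners and in 14.9% of all detected transcripts. The log2(FPKM + 1) difference of this partner was 2.29 ± 0.49 (SE, adjusted p = 0.0263 by limma). It was not called without acidified library 1 (limma, adjusted p = 0.0741), without acidified library 2 (0.0964), or without control library 1, 2 or 3 (0.0828, 0.0762 and 0.0956), and over 16 alternatives the adjusted p lay between 0.00131 and 0.124. The member made up 2.06%, 1.26% and 2.91% of the FPKM of the pair in the acidified libraries, against 0% in each control library. The member, higher at the acidified site by its choice, was the minor form of the pair. Its partner was called in 10 of the 16 alternatives.

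The other called partner belonged to the member ranked 93. It had 18.6, 17.1 and 14.6 FPKM in acidified libraries 1, 2 and 3, against 6.55, 2.58 and 4.06 FPKM in control libraries 1, 2 and 3. Here too every acidified value stood above every control value, as in 14.9% of all detected transcripts. The difference was 1.78 ± 0.31 (SE, limma adjusted p = 0.0138). Limma's adjusted p was 0.0513 without acidified library 2 and between 0.00328 and 0.127 over 16 alternatives.

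The other 12 partners did not pass the test. Described here are the most abundant of them and the one with the most negative difference. The partner of the member ranked 18 had 96.2, 113 and 18.1 FPKM in acidified libraries 1, 2 and 3, against 31.2, 14.7 and 26.4 FPKM in control libraries 1, 2 and 3. These overlapped (1.31 ± 0.65 SE, limma adjusted p = 0.27), although without acidified library 3 limma's adjusted p was 0.0136, the lowest over 16 alternatives, where the highest was 0.550. In acidified library 3, where this partner was low, the member held 74.4% of the FPKM of the pair, against 19.0% and 9.38% in acidified libraries 1 and 2 and 0% in the control libraries. The partner with the most negative difference had 8.87, 3.54 and 3.12 FPKM in the acidified libraries, against 5.31, 12.4 and 9.62 FPKM in the control libraries (-0.76 ± 0.41 SE, limma adjusted p = 0.30). Its member had 5.45, 10.7 and 10.02 FPKM in the acidified libraries and 0 in all control libraries. The member was the larger form in acidified libraries 2 and 3, with 75.1% and 76.3% of the pair, and the smaller one in library 1, with 38.1%. Such shares contain the value that chose the member and carry no test.

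The rest of each component, summed over all transcripts that were not members, was tested in the same way and with the same limit. Of the 41 components with other listed transcripts, 16 had a detected remainder. Of these 16, 5 were higher at the acidified site and none was lower (limma, adjusted p under 0.05), where 2.50% of all 5089 remainders tested were called higher and 3.97% lower. At an unadjusted p under 0.05 there were 6 higher and 1 lower. The median difference was 0.50 over the 16, and 0.00 over all remainders tested. The count of 5 became 2, 3 and 6 without acidified library 1, 2 and 3, and 3 without any 1 control library. Calls over all remainders were not counted in these fits.

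Of the 5, 2 are in essence the called partners above. In the third, no single other form had been detected, and the remainder had 4.22, 4.33 and 1.29 FPKM in acidified libraries 1, 2 and 3, against 0, 0 and 0.0810 FPKM in control libraries 1, 2 and 3 (1.96 ± 0.34 SE, limma adjusted p = 0.0097). The fourth had 5.67, 3.12 and 3.15 FPKM in the acidified libraries, against 0.614, 0.677 and 1.24 FPKM in the control libraries (1.41 ± 0.29 SE, limma adjusted p = 0.0167, and 0.0600 without acidified library 1, in a range between 0.0154 and 0.149 over 15 alternatives). In both, every acidified value stood above every control value, as in 13.2% of all remainders. The fifth had 5.71, 5.86 and 2.57 FPKM in the acidified libraries, against 0.983, 1.37 and 1.28 FPKM in the control libraries (1.31 ± 0.31 SE, limma adjusted p = 0.0279). Without any 1 library other than acidified library 3, limma's adjusted p was between 0.0533 and 0.101, and over 15 alternatives it was between 0.0119 and 0.205.

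The remainder with the most negative difference had 0, 0.486 and 0 FPKM in the acidified libraries, against 1.32, 1.42 and 1.21 FPKM in the control libraries. It did not pass the test (-1.02 ± 0.31 SE, limma adjusted p = 0.0692). Every acidified value lay below every control value, as in 14.2% of all detected transcripts. The share over all remainders was not counted. This remainder was called lower under 2 of 15 alternatives, over which limma's adjusted p lay between 0.0439 and 0.241. Its member, ranked 99, had 1.28, 1.33 and 1.67 FPKM in the acidified libraries and 0 in all control libraries.

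Without the limit on components, 115 transcripts would have met the rule. The 11 left out averaged between 1.76 and 889 FPKM at the acidified site. The highest of them had 1337, 998 and 333 FPKM in acidified libraries 1, 2 and 3, against 0.614, 0.694 and 0 FPKM in control libraries 1, 2 and 3, and the others averaged at most 18.5 FPKM at the acidified site.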

How the data were processed

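Both deposited tables give FPKM per transcript, computed by the authors, for 3 libraries each. The submitters' processing notes name RSEM 1.1.21 and Bowtie2; what each did, and the assembler, are not given there. Low values were whole multiples of 1 step per library (0.00886 to 0.0116), the form of rounded values multiplied by 1 factor per library, so read counts were not recovered and depth is unknown. Libraries were assigned to sites by their location label. The tables were joined by transcript and the rule was applied as stated. limma 3.58.1 in R 4.3.3 compared log2(FPKM + 1) between the sites over all 5399 detected transcripts, and over 5089 component remainders, with a variance trend, robust fitting, two-sided p-values and Benjamini-Hochberg adjustment. An adjusted p under 0.05 was a call. The fits were tested on simulated data. The members, groups and tests were chosen with earlier results of these data known. The named transcripts are the member with the highest acidified mean and the one with the largest log2 difference. Alternatives varied the thresholds, the pseudocount, the filter, the scaling, the limma settings, the replicate block and the libraries. No sequences were used here.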

Additional observations from a re-analysis of the deposited data

How the results depend on the processing

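The number of members was 104, and 177 and 52 with a minimum of 0.5 and 2 FPKM. It was 76 to 150 with folds of 5 and 2 and 95 to 104 under the scalings. Leaving out a library gave 24 to 134 members, low without an acidified one because detection then needs a value from the control site, and 109 to 133 with detection kept (added after the data were seen). The spread of members at the acidified site was 0.38 with a pseudocount of 5; at the control site it was 0.267 and 0.0229 with 0.1 and 5. Library 1 was highest in 35 members after rescaling to the same sum, and in 41 to 46 under the other scalings. The 222 higher and 192 lower transcripts became 142 and 126 with a pseudocount of 0.1, 40 and 26 with no filter on low values, and 68 to 219 and 57 to 175 without single libraries. Called members were 36 with no filter, 29 with a mean FPKM of at least 5, which tests fewer, and 47 to 79 without single libraries. Called partners, 2 higher and 0 lower, were 0 higher with no filter, and 0 to 4 higher and 0 lower without single libraries. Called remainders, 5 higher and 0 lower, were 0 higher with no filter, 2 higher with a mean of at least 5, 1 lower with a pseudocount of 5 and 1 lower without trend and robust fitting, and 2 to 6 higher and 0 lower without single libraries. Causes not named here were not tested. Deviations of libraries with the same replicate number had correlations of -0.12, 0.02 and -0.12. With 3 libraries per site, these cannot show whether such libraries share more than a number. Fitting that number as a replicate block called 141 transcripts higher and 101 lower, and 3 remainders higher. Without single libraries, the share of FPKM was 2.13% to 3.51% at the acidified site and 0.0744% to 0.0833% at the control site. Leaving out 1 of 3 libraries cannot move a mean by 1 SD, so staying within 1 SD is no check. Unknown depth limits every value near 0.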
